A study of Mus musculus with 48 samples.

Results

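The 34 genes described here encode the contractile machinery of the mouse heart muscle cell. They were taken by name from a list of sarcomere, Z-disc and sarcomere-associated stress genes, out of 54752 genes in the expression table. They comprise 7 myosin genes, 9 thin filament genes, 4 titin and M-band genes, 9 Z-disc and intercalated disc genes and 5 stress-responsive Z-disc and chaperone genes. RNA was sequenced from 4 populations of Prox1-eGFP knock-in mice on a C57BL/6 background: cardiomyocytes, lymphatic endothelial cells of the heart (heart LECs), blood endothelial cells of the heart (heart BECs) and lymphatic endothelial cells of the diaphragm (diaphragm LECs). Each population had 12 libraries from 12 mice. Of these, 4 had received bovine serum albumin alone (control), 5 angiotensin II in albumin and 3 angiotensin II together with VEGFCc156s. Angiotensin II is a peptide that raises blood pressure and drives cardiac hypertrophy and fibrosis, and VEGFCc156s is a VEGFC variant selective for the lymphatic receptor VEGFR3. All agents came from implanted minipumps, cells were taken after 5 to 6 weeks, and the reporter allele was carried by the controls too. The labels give ages of 8 to 16 months, whereas the study's methods count mouse age in weeks. LECs and BECs were sorted as CD31-positive, CD45-negative live cells with or without eGFP, while cardiomyocytes were pelleted at low speed from digested heart and not sorted. The same mouse number marks the same animal in every population, with 11 mice shared between the diaphragm and the heart populations and all 12 among the heart populations. The 3 treatments were given to different mice, so the replicates are animals. Per-library values are given in the order of mice 1, 5, 9 and 11 (control), 3, 12, 14, 15 and 18 (angiotensin II, with 4 in place of 12 in the diaphragm) and 2, 6 and 8 (with VEGFCc156s). Expression is given as TPM, the share of all transcripts that a gene takes after correction for its length, scaled to a fixed total. The depth of the libraries is unknown.

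In the sarcomere, myosin thick filaments pull on actin thin filaments, the troponins and tropomyosin make that pull depend on calcium, titin spans from the Z-disc to the M-band, and Z-disc proteins anchor the actin and sense stretch. The adult mouse ventricle makes mainly alpha-myosin heavy chain (Myh6) and cardiac actin (Actc1), and a heart under pressure is known to re-express genes of the fetal programme, such as beta-myosin heavy chain (Myh7) and skeletal actin (Acta1). Myl4 and Myl7 are atrial myosin light chains and Myl2 and Myl3 their ventricular counterparts, so their balance also reads how much atrium a heart preparation holds. Endothelial cells have no sarcomeres, although several Z-disc and LIM-domain proteins of the list also bind actin in other cells.

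The 34 genes took 2.20 to 5.38% of all TPM in the cardiomyocyte libraries. All 20 cardiomyocyte genes from outside the sarcomere had a median of at least 1 TPM there. So did 18 in heart LECs, 17 in heart BECs and 18 in diaphragm LECs, so that bar does not check the label. Their sums lay apart, at 6490 to 14887 TPM in cardiomyocytes against 698 to 1428, 754 to 976 and 893 to 1597 TPM. The cardiomyocyte preparations were not pure: the summed TPM of 8 fibroblast genes was 2523 to 3743 in controls, 4496 to 6278 after angiotensin II and 3599 to 7879 after angiotensin II + VEGFCc156s, and that of 7 macrophage genes was 643 to 841, 1042 to 1888 and 1017 to 2228. The 5 erythroid genes summed to 9857 to 20378, 8953 to 22427 and 13536 to 24892 TPM. For 8 blood endothelial genes the sums were 2539 to 3328, 2171 to 3772 and 2809 to 3780 TPM. Of the 12 preparations, mouse 14 (angiotensin II) stood apart, with 15.9% mitochondrially encoded TPM and the highest sums of skeletal muscle genes (3153 TPM) and atrial genes (79057 TPM). Mouse 6 (angiotensin II + VEGFCc156s) held 16.0% mitochondrial TPM against 22.6 to 31.0% in the other 10, and mouse 8 of that group had 19306 genes at 1 TPM or more against 13020 to 15816 elsewhere. Fits with the number of detected genes as covariate, without the mitochondrial genes and without each library in turn are given where they change a call. The part of the fibroblast, macrophage, erythroid, endothelial, skeletal and atrial transcripts in the differences was not tested. In such bulk samples, fewer cells of a type and less RNA per cell cannot be told apart.

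Promoter sequence is shown for some of the genes that carry a CArG box, whether or not they differed in cardiomyocytes. RefSeq (GRCm38.p6) promoters, read as the 250 bases before each start, were at hand for 29 of the 34 genes, 41 promoters in all. A CArG box, the site of serum response factor, was found on either strand in 11 of these 41, from 9 genes (Acta1, Actc1, Fhl1, Fhl2, Ldb3, Myl3, Myl7, Myom1 and Nebl), against 482 of all 32851 promoters (1.47%). A MEF2 site was in 5 of them (Fhl2, Mybpc3, Myoz2, Ttn and Xirp2) against 2.92% of all. The letters CATTCC, the core bound by TEAD factors, were in the promoters of 10 genes (Acta1, Ankrd1, Myh6, Myh7, Myl3, Myl7, Nebl, Tnnc1, Tnnt2 and Tpm1) against 12.6% of all. Xirp2, Ankrd1, Tnni3, Myh6 and Des had no CArG box, although they differed unadjusted from control in cardiomyocytes. Actc1, Fhl2 and Myl3 had one and did not differ so. No promoter was at hand for Tcap, which did differ unadjusted. The first pair below gives the 160 bases before the start of Acta1, the skeletal actin gene with the largest difference, and of Myl7, the atrial light chain gene with the lowest, where capitals mark the CArG box and CATTCC. The other four give 30 bases around the CArG box, in capitals, for Actc1, the main cardiac actin gene beside Acta1, and for Fhl1, Ldb3 and Nebl, whose cardiomyocyte libraries with VEGFCc156s did not overlap the controls. The Acta1 and Myl7 windows lie before the annotated genes, at 123891769 to 123894751 on chromosome 8 and 5896637 to 5898782 on chromosome 11, and the Ldb3 box lies just before its gene. The Actc1, Fhl1 and Nebl boxes lie inside the annotated genes, before an internal start. A match is a description of the letters only.
Acta1 promoter (chr8:123894776-123894935, minus strand): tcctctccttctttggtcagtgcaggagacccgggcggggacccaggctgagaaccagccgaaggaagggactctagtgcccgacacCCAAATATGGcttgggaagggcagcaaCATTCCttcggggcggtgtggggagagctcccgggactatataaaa
Myl7 promoter (chr11:5898783-5898942, minus strand): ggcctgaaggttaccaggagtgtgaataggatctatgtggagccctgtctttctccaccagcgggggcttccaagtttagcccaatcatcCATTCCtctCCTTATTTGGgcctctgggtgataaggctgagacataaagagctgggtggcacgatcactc
Actc1 CArG box (chr2:114052903-114052932, minus strand): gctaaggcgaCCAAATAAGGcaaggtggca
Fhl1 CArG box (chrX:56779571-56779600, plus strand): ccttggatcaCCTAAAATGGttaagaattt
Ldb3 CArG box (chr14:34588697-34588726, minus strand): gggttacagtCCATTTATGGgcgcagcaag
Nebl CArG box (chr2:17462999-17463028, minus strand): gctcccatctCCTAAATTGGctggaaatgc

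The first question was whether the muscle cells of the treated hearts changed their sarcomere genes. Across the 12 cardiomyocyte libraries the most abundant was Myl7, the atrial regulatory light chain, with a median of 4301 TPM, followed by tropomyosin Tpm1 (3157 TPM), troponin T Tnnt2 (2888 TPM), Actc1 (2700 TPM), cardiac troponin I Tnni3 (2666 TPM), Myh6 (1905 TPM), Myl2 (1687 TPM) and Myl4 (1572 TPM). The least abundant were Myh7 (26.3 TPM), the Xin-repeat genes Xirp1 (24.9 TPM) and Xirp2 (16.1 TPM), and slow skeletal troponin I Tnni1 (3.00 TPM). After angiotensin II, none of the 34 genes passed an adjusted p of 0.05 in limma (smallest adjusted p = 0.21), where 0.0892% of all 15691 genes did. At an unadjusted p under 0.05, 5 genes were higher (Acta1, Xirp2, Ankrd1, Fhl1 and Myom1) and 3 lower (Myl7, Nebl and Tnni3), against 8.00% higher and 1.85% lower among all genes. The median difference of the 34 genes was 0.07 on the log2(TPM + 1) scale and that of all genes 0.12. After angiotensin II + VEGFCc156s none passed either against control (smallest adjusted p = 0.0874 in limma), beside 0.663% of all genes. Here 5 were higher unadjusted (Acta1, Xirp2, Ankrd1, Fhl1 and Des) and 6 lower (Myh6, Myl7, Tnni3, Nebl, Tcap and Ldb3), against 8.15% and 4.70% of all genes, and the medians were 0.02 for the 34 genes and 0.11 for all. Both comparisons use the same 4 control libraries.

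No gene of the 34 kept its angiotensin II and control libraries fully apart, where 5.10% of all genes lay above and 0.574% below. With VEGFCc156s added, 3 genes lay wholly above the controls (Acta1, Xirp2 and Fhl1) and 7 wholly below (Myh6, Myl7, Tnni1, Tnni3, Nebl, Tcap and Ldb3), against 9.19% and 4.78% of all genes. Adding VEGFCc156s was then set against angiotensin II alone. There limma called none of the 34 genes (smallest adjusted p = 1) and 0% of all genes, and 0 were higher and 1 lower unadjusted, against 0.848% and 1.56% of all. That gene was Tcap, telethonin, which caps titin at the Z-disc, at -0.82 ± 0.35 (SE). Acta1 differed by 0.65 (95% confidence interval -1.21 to 2.51), Myl7 by -0.35 (-1.32 to 0.63) and Nebl by -0.46 (-1.10 to 0.17). The median difference was -0.09 for the 34 genes and -0.03 for all.

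**Figure D1:**
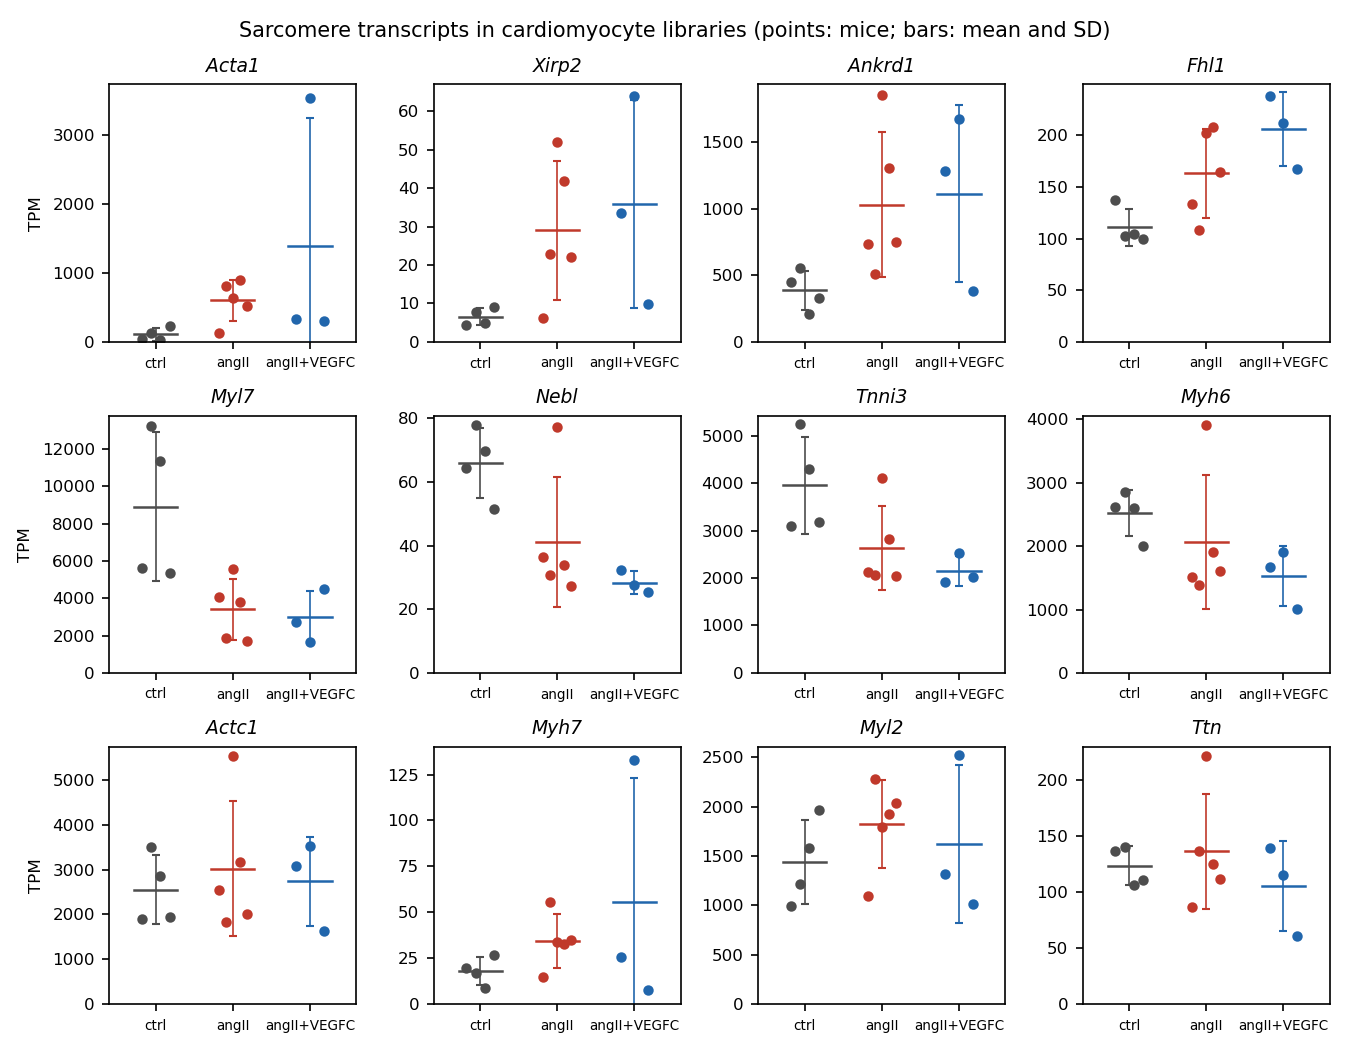
TPM of 12 sarcomere genes in the cardiomyocyte libraries of control (n = 4), angiotensin II (n = 5) and angiotensin II + VEGFCc156s (n = 3) mice; points are mice, bars the mean with the SD, drawn no lower than 0. For Acta1 the 4 controls sit between 33.1 and 229 TPM and the 3 mice with VEGFCc156s between 299 and 3531 TPM, while for Nebl the controls sit between 51.6 and 78.0 TPM and those 3 mice between 25.3 and 32.3 TPM.

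Among the thin filament genes, Acta1, skeletal alpha-actin, differed most. It measured 44.8, 126, 33.1 and 229 TPM in the 4 control libraries, 133, 814, 636, 899 and 520.1 TPM after angiotensin II, and 335, 3531 and 299 TPM after angiotensin II + VEGFCc156s. Of the angiotensin II libraries only the one at 133 TPM lay within the control range, and all 3 with VEGFCc156s lay above it. The differences on the log2(TPM + 1) scale were 2.56 ± 0.76 (SE; 95% confidence interval 0.94 to 4.17; adjusted p = 0.21, limma) and 3.20 ± 0.87 (1.35 to 5.06; adjusted p = 0.119). Without mouse 6, the library at 3531 TPM, the latter became 2.04, and without mouse 8 it was 3.74 with an adjusted p of 0.034. Cardiac actin Actc1, whose protein takes the same place in the filament, did not follow. It measured 1905, 3515, 2863 and 1944 TPM in controls, 2538, 1834, 5555, 3170 and 2006 TPM after angiotensin II, and 3079, 3535 and 1628 TPM with VEGFCc156s. All 3 groups overlapped (0.18 ± 0.34, adjusted p = 0.92, and 0.06 ± 0.39, adjusted p = 0.964, limma). The share of Acta1 in the summed TPM of both actins was 4.36% ± 4.23 (SD, n = 4) in controls, 17.7% ± 10.2 (n = 5) after angiotensin II and 25.1% ± 21.7 (n = 3) with VEGFCc156s.

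Nebl encodes nebulette, an actin-binding protein that reaches from the Z-disc along the thin filament. Its levels were 64.3, 78.0, 69.6 and 51.6 TPM in controls, 36.4, 30.8, 77.2, 33.9 and 27.4 TPM after angiotensin II, and 32.3, 27.6 and 25.3 TPM with VEGFCc156s. All angiotensin II libraries but mouse 14 lay below the controls, as did all 3 with VEGFCc156s, at -0.74 ± 0.26 (adjusted p = 0.331) and -1.20 ± 0.30 (adjusted p = 0.0874, limma). Leaving out mouse 14 gave -0.98 (adjusted p = 0.0524) and -1.21 (adjusted p = 0.00943, limma). Mouse 14 is in neither group of the latter comparison. Tnni3, the adult cardiac troponin I, measured 3100, 5251, 4301 and 3173 TPM in controls, 2134, 2056, 4101, 2815 and 2047 TPM after angiotensin II, and 1922, 2518 and 2022 TPM with VEGFCc156s. Mouse 14 was again the one angiotensin II library inside the control range (-0.59 ± 0.24, adjusted p = 0.441, and -0.88 ± 0.28, adjusted p = 0.182, limma). Its developmental counterpart Tnni1 stayed scarce, at 4.90, 4.51, 3.13 and 5.39 TPM in controls, 3.31, 2.5, 6.55, 2.07 and 0.492 TPM after angiotensin II, and 2.44, 2.88 and 2.08 TPM with VEGFCc156s. Tnni1 made up 0.121% ± 0.0493, 0.107% ± 0.0576 and 0.114% ± 0.0120 (SD) of the TPM of both troponin I genes, with overlapping groups. Troponin T, Tnnt2, ties the troponins to tropomyosin and measured 2876, 4083, 3583 and 2899 TPM in controls, 2308, 2272, 4885, 3194 and 2304 TPM after angiotensin II, and 2675, 3066 and 2007 TPM with VEGFCc156s. These groups overlapped (-0.22 ± 0.25 and -0.38 ± 0.29, adjusted p = 0.842 and 0.618, limma). Tnnc1 (737 to 2239 TPM), Tpm1 (2256 to 6545 TPM) and the filament-length regulator Lmod2 (30.8 to 124 TPM) differed from control by -0.12 to 0.14. In all, 5 of the 9 thin filament genes were higher and 4 lower after angiotensin II, and 4 and 5 with VEGFCc156s.

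Among the 7 myosin genes, 4 were higher and 3 lower after angiotensin II (median 0.03), and 3 and 4 with VEGFCc156s (median -0.17). Myl7 accounted for the lowest value. It stood at 5624, 13202, 11373 and 5365 TPM in controls, 4092, 1893, 5550, 3800 and 1686 TPM after angiotensin II, and 2735, 1673 and 4511 TPM with VEGFCc156s. Of the 8 treated libraries only mouse 14, at 5550 TPM, reached the control range, and the differences were -1.34 ± 0.40 (adjusted p = 0.21) and -1.69 ± 0.45 (adjusted p = 0.114, limma). Myl4, the other atrial light chain, overlapped fully, with 1631, 3633, 2517 and 1317 TPM in controls, 1422, 705, 4459, 2154 and 1088 TPM after angiotensin II, and 2139, 1230 and 1514 TPM with VEGFCc156s. Its differences were small (-0.36 ± 0.45 and -0.45 ± 0.51, adjusted p = 0.858 and 0.752, limma). The ventricular light chain Myl2 measured 995, 1217, 1580 and 1967 TPM in controls, 1098, 2284, 1794, 1925 and 2040 TPM after angiotensin II, and 1318, 2525 and 1017 TPM with VEGFCc156s. The groups were not separated (0.26 ± 0.26 and 0.24 ± 0.30, adjusted p = 0.816 and 0.786, limma). The atrial pair thus made up 87.1% ± 6.90 (SD) of Myl2, Myl4 and Myl7 together in controls, 70.9% ± 14.7 after angiotensin II and 72.6% ± 16.9 with VEGFCc156s. That share sets 2 atrial chains against 1 ventricular chain and leaves out Myl3. Myl7 alone made up 84.4% ± 7.94 (SD) of Myl2 and Myl7 in controls, 62.3% ± 16.2 after angiotensin II and 63.0% ± 21.2 with VEGFCc156s. On average Myl7 thus outweighed Myl2 in all 3 groups. It did not in mice 12 (45.3%) and 18 (45.2%) after angiotensin II or in mouse 6 with VEGFCc156s (39.9%). The summed TPM of 8 atrial genes, which include Myl4 and Myl7, ranged from 10227 (mouse 12) to 79057 (mouse 14), both after angiotensin II, and its part in the Myl7 difference was not tested.

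The heavy chains carried the second isoform pair. Myh6 measured 2615, 2859, 2596 and 2002 TPM in controls, 1506, 1379, 3914, 1899 and 1604 TPM after angiotensin II, and 1678, 1911 and 1004 TPM with VEGFCc156s. Mouse 14 was the highest of all 12 and the other 7 treated libraries lay below every control (-0.39 ± 0.30, adjusted p = 0.717, and -0.76 ± 0.34, adjusted p = 0.356, limma). Myh7 measured 19.5, 16.6, 8.71 and 26.9 TPM in controls, 14.5, 55.6, 33.5, 32.8 and 35.1 TPM after angiotensin II, and 25.6, 133 and 7.72 TPM with VEGFCc156s. Of the 5 angiotensin II libraries 4 exceeded the highest control, but the group with VEGFCc156s held both the lowest and the highest value (0.83 ± 0.60, adjusted p = 0.699, and 0.91 ± 0.69, adjusted p = 0.619, limma). The share of Myh7 in both heavy chains was 0.745% ± 0.422 (SD), 1.90% ± 1.22 and 2.93% ± 3.13. These 2 genes share 1373 of their 50-base windows (22.2% of those of Myh7), so the low Myh7 level is uncertain, since an estimate from short reads can be split between them. Myl3, the ventricular essential light chain, ranged from 568 to 1827 TPM and Mybpc3, myosin-binding protein C, from 98.6 to 456 TPM.

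Of the 5 stress-responsive genes, all 5 had a positive difference after angiotensin II (median 0.45, from 0.07 to 1.39) and 4 with VEGFCc156s (median 0.53). Of all 15691 genes, 10713 and 9705 had a positive difference. Ankrd1, the cardiac ankyrin repeat protein, binds titin and is induced by stretch. Its levels were 448, 556, 212 and 331 TPM in controls, 732, 507, 1850, 1307 and 751 TPM after angiotensin II, and 1284, 1675 and 382 TPM with VEGFCc156s. Thus 4 of 5 and 2 of 3 treated libraries lay above all controls (1.39 ± 0.45, adjusted p = 0.271, and 1.30 ± 0.51, adjusted p = 0.288, limma). Fhl1, a LIM-domain protein that binds titin, measured 137, 102, 104 and 99.9 TPM in controls, 133, 108, 202, 208 and 164 TPM after angiotensin II, and 238, 212 and 167 TPM with VEGFCc156s. The last 3 all exceeded every control (0.51 ± 0.21, adjusted p = 0.443, and 0.89 ± 0.25, adjusted p = 0.124, limma). Hspb7, a small heat shock protein of heart muscle, measured 176, 218, 178 and 173 TPM in controls, 156, 193, 532, 341 and 201 TPM after angiotensin II, and 269, 383 and 179.8 TPM with VEGFCc156s. Its groups overlapped (0.45 ± 0.32, adjusted p = 0.698, and 0.53 ± 0.37, adjusted p = 0.58, limma). Fhl2 (149 to 340.4 TPM) and the desmin chaperone Cryab (761 to 1765 TPM) had differences between -0.23 and 0.08.

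Xirp2, an actin-binding Xin-repeat protein of the intercalated disc, was the second largest difference. It was 4.50, 7.72, 5.00 and 9.03 TPM in controls, 6.16, 22.8, 51.9, 41.9 and 22.2 TPM after angiotensin II, and 33.6, 64.0 and 9.89 TPM with VEGFCc156s. Of the 8 treated libraries 7 exceeded all controls (1.61 ± 0.51, adjusted p = 0.265, and 2.17 ± 0.59, adjusted p = 0.117, limma). Leaving out mouse 8 took the latter to 2.74 (adjusted p = 0.0145) and leaving out mouse 6 to 1.51 (adjusted p = 0.307). Another pair of disc genes, named here after their values were seen, differed in opposite directions with VEGFCc156s: Ldb3, the Z-disc scaffold Cypher, by -0.89 ± 0.27 (adjusted p = 0.16) and Des, the intermediate filament desmin, by 1.30 ± 0.54 (adjusted p = 0.318, limma). The remaining 6 of this group, Actn2 (137 to 678 TPM), Myoz2 (167 to 319 TPM), Csrp3 (524 to 1195 TPM), Nexn (68.5 to 144 TPM), Xirp1 (6.56 to 58.2 TPM) and Pdlim5 (84.6 to 190.1 TPM), had adjusted p of 0.616 or more in both comparisons with control. In the titin and M-band group, titin itself (Ttn) measured 137, 140.2, 106 and 111 TPM in controls, 86.2, 137, 222, 125 and 112 TPM after angiotensin II, and 139.5, 115 and 60.8 TPM with VEGFCc156s. Titin overlapped between groups (0.04 ± 0.27 and -0.24 ± 0.31, adjusted p = 0.981 and 0.789, limma). Tcap ranged from 610.1 to 2680 TPM, Myom1 from 49.0 to 123 TPM and Myom2 from 19.7 to 126 TPM.

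**Figure D2:**
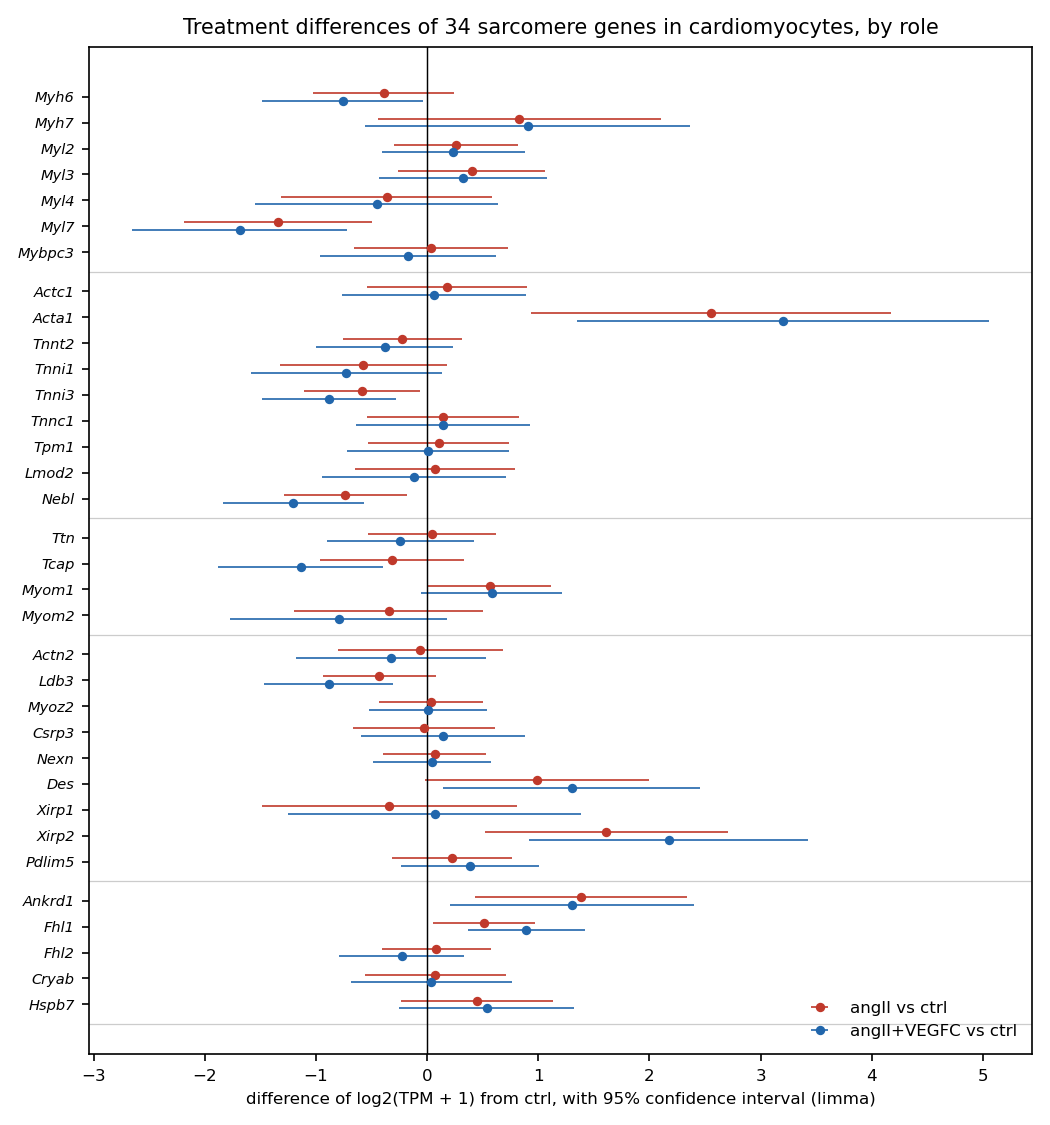
Difference of log2(TPM + 1) from control for the 34 genes in cardiomyocytes after angiotensin II and after angiotensin II + VEGFCc156s, with 95% confidence intervals, ordered by role. Acta1 and Xirp2 lie farthest to the higher side and Myl7 and Nebl to the lower side in the group with VEGFCc156s, and no gene passed an adjusted p of 0.05.

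How the 34 genes balance depends on the scaling. After quantile normalization, which moved the median of all genes by -0.13 after angiotensin II and by -0.10 with VEGFCc156s, 15 of the 34 were higher and 19 lower after angiotensin II in place of 21 and 13, and 16 and 18 with VEGFCc156s in place of 19 and 15. With the mitochondrial genes left out of the total the splits were 14 and 20, and 13 and 21. In the main fit all genes split into 10713 higher and 4978 lower, and 9705 and 5986. The counts of called genes also depended on single libraries: with VEGFCc156s against control, 5 genes passed without mouse 8 (Myl7, Acta1, Xirp2, Ankrd1 and Fhl1) and 2 without mouse 14 (Nebl and Tcap), when 5.71% and 1.53% of all genes passed. After angiotensin II, Ankrd1 passed without mouse 8 (1.44, adjusted p = 0.0409, limma) beside 2.11% of all genes. Mouse 8 is in neither group of that comparison, nor is mouse 14 in that of VEGFCc156s against control. Each enters there through the shared spread, the common age term and the filter on low values. Of 40 other sarcomere and Z-disc genes, limma called 0 in cardiomyocytes in any comparison, and 1 was higher and 5 lower unadjusted after angiotensin II, 2 and 9 with VEGFCc156s and 0 and 0 between the treated groups. The smallest p were for the caveolar Cavin4 (0.70, adjusted p = 0.368), the myosin chaperone Unc45b (-0.52, adjusted p = 0.387) and tropomyosin Tpm2 (-0.60, adjusted p = 0.413) after angiotensin II, and for Unc45b (-1.0, adjusted p = 0.0645), the myosin light chain kinase Mylk3 (-1.80, adjusted p = 0.0798) and Cmya5 (-1.27, adjusted p = 0.0824) with VEGFCc156s (limma).

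The second question was how much of this muscle programme the sorted endothelial libraries held. Each gene's TPM was divided by that in the cardiomyocyte library of the same mouse. A set of 10 genes was called heart-restricted as a working label: Myh6, Tnnt2, Tnni3, Mybpc3, Myl7, Myl4, Myoz2, Actc1, Actn2 and Lmod2. Their median ratio was 1.55% in heart LECs (0.506 to 8.56% per library), 1.31% in heart BECs (0.470 to 2.14%) and 0.127% in diaphragm LECs (0.00973 to 3.90%). With the 20 cardiomyocyte genes from outside the sarcomere as the reference, the medians were 5.56, 3.13 and 1.67%. The lowest of all 34 genes in heart BECs were the atrial light chains and Myh6, with medians of 0.289% for Myl7 (0.0422 to 1.54%), 0.470% for Myh6 (0.121 to 0.757%) and 0.644% for Myl4. The same 3 were lowest in heart LECs (0.396, 0.959 and 0.915%), whereas Mybpc3 (0.0119%), Myh6 (0.0383%) and Actc1 (0.0477%) were lowest in diaphragm LECs. The ventricular Myl2 had ratios of 6.99% in heart LECs and 5.15% in heart BECs, and the median over libraries of its quotient with the ratio of the 10 restricted genes was 3.08 and 3.84. In diaphragm LECs the same quotient was 11.7 for Myoz2, 7.85 for Myl4 and 2.90 for Actn2. It was 0.0487 to 1.10 for the rest of the set, so the label is loose in that population.

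Fhl1 and Pdlim5 stood far above this level in every endothelial library. Fhl1 had median ratios of 92.5% in heart LECs, 39.7% in heart BECs and 134% in diaphragm LECs, and Pdlim5, a PDZ and LIM protein that links alpha-actinin to kinases, 37.8, 72.2 and 36.5%. Both exceeded 5 times the ratio of the restricted genes in 12 of 12 heart LEC, 12 of 12 heart BEC and 11 of 11 diaphragm LEC libraries. Nebl (20.4, 27.7 and 8.32%) did so in 9, 12 and 8 libraries, and Nexn, an actin filament binder (20.2, 9.10 and 17.2%), in 9, 9 and 11. Fhl2 did so in 8, 7 and 9 libraries, Tpm1 in 4, 11 and 8, Myom1 in 6, 5 and 9 and Cryab in 3, 6 and 8. Tnni1 ratios ran from 0 to 531% in heart LECs, but its cardiomyocyte level was only 3.00 TPM. Acta1 was over 5 times in 4, 5 and 10 libraries. For genes near the restricted level, transcripts from muscle cells and from endothelial cells cannot be told apart in these libraries.

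**Figure D3:**
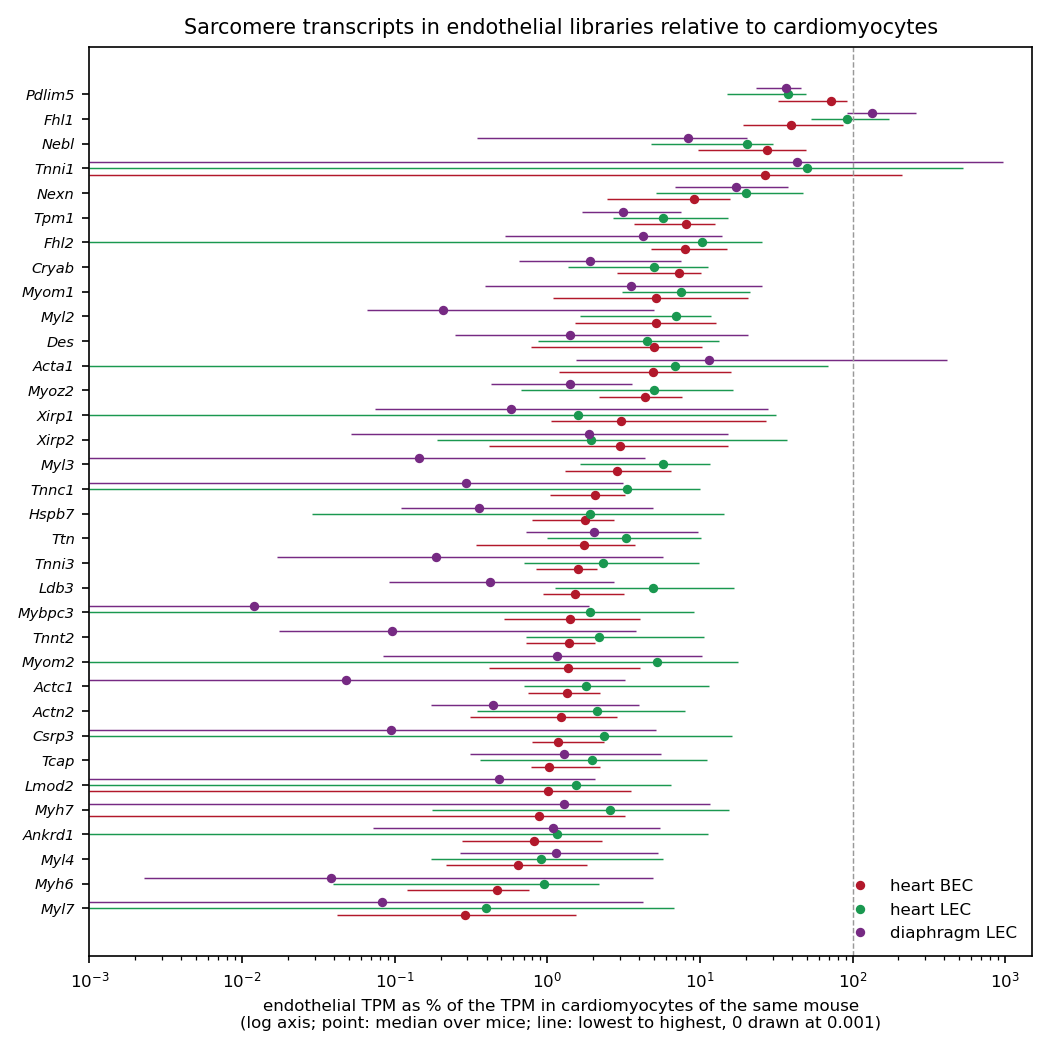
TPM of each of the 34 genes in heart LECs, heart BECs and diaphragm LECs as a percentage of its TPM in the cardiomyocytes of the same mouse, on a log axis; points are medians, lines run from the lowest to the highest mouse, 0 is drawn at 0.001% and the dashed line marks 100%. Fhl1 and Pdlim5 have medians of 36.5% or more in all 3 populations. The per-library medians of the 10 heart-restricted genes center on 1.55, 1.31 and 0.127%. Their single-gene medians run from 0.396 to 5.04%, 0.289 to 4.39% and 0.0119 to 1.40%.

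Between the endothelial populations, differences were tested over all 36 endothelial libraries with treatments weighted equally. Heart LECs exceeded heart BECs in 3 of the 34 genes and fell below in 3, against 8.94% and 8.64% of all 32754 genes. Fhl1 was higher by 1.14 ± 0.12 (adjusted p = 2.92e-09, limma), from 65.3 ± 22.1 TPM (SD, n = 12) in heart BECs to 143 ± 27.9 TPM in heart LECs. Ldb3 was higher by 1.21 ± 0.30 (adjusted p = 0.00367) and Nexn by 1.08 ± 0.24 (adjusted p = 9.10e-04). Pdlim5 went the other way, from 78.5 ± 9.46 TPM in heart BECs to 42.9 ± 13.4 TPM in heart LECs (-0.98 ± 0.16, adjusted p = 2.16e-05, limma), followed by Nebl (-0.80 ± 0.24, adjusted p = 0.0179) and Tpm1 (-0.50 ± 0.16, adjusted p = 0.0288). The median difference of the 34 genes was 0.31 and that of all genes 0.15. All 6 kept their sign within each of the 2 sequencing batches, which are parts of the data that gave the calls and so no separate test. Tpm1 missed the threshold without control mouse 5 or mouse 8 with VEGFCc156s of the heart LECs, or mouse 6 or 8 with VEGFCc156s of the heart BECs (adjusted p = 0.0545 to 0.0600). Of the 38 other sarcomere and Z-disc genes tested, 10 differed, among them filamin C (Flnc, 2.05), Pdlim3 (1.32), Obsl1 (1.29), Actn1 (1.09), Hspb8 (1.03) and Trim55 (0.70) higher in heart LECs and Tpm2 (-1.78), Unc45b (-1.48) and Hspb1 (-1.23) lower.

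Diaphragm LECs, from a skeletal muscle, differed from heart LECs in 15 of the 34 genes, of which 13 were lower and 2 higher, against 2.67% lower and 1.88% higher among all genes. The contractile genes of the heart led: Actc1 (-3.56 ± 0.54, adjusted p = 2.91e-05), Myl2 (-3.55 ± 0.50, adjusted p = 6.80e-06), Myl3 (-3.29 ± 0.52, adjusted p = 4.48e-05), Tnnt2 (-3.13 ± 0.50, adjusted p = 6.85e-05) and Tnni3 (-2.85 ± 0.48, adjusted p = 1.09e-04, limma) were lower, then Tnnc1 (-2.46), Csrp3 (-2.11), Ldb3 (-1.75), Mybpc3 (-1.42), Actn2 (-1.36), Myoz2 (-1.29), Cryab (-1.27) and Tpm1 (-0.74). Higher were Acta1, at 55.2 ± 41.7 TPM (SD, n = 12) against 27.7 ± 21.2 TPM (1.43 ± 0.36, adjusted p = 0.0133), and Fhl1, at 216 ± 33.1 TPM (0.63 ± 0.12, adjusted p = 6.74e-04, limma). Without 4 diaphragm LEC libraries rich in the atrial gene Nppa, described below, Acta1 missed the threshold (adjusted p = 0.0784). The 17 skeletal muscle genes summed to 60.5 to 246 TPM in diaphragm LECs and 7.84 to 72.9 TPM in heart LECs, and their part in the Acta1 difference was not tested. Against heart BECs 3 were higher, Fhl1 (1.76 ± 0.12, adjusted p = 4.80e-14), Acta1 (1.47 ± 0.36, adjusted p = 0.00242) and Nexn (1.00 ± 0.24, adjusted p = 0.00171), beside 7.54% of all genes. Lower were 15, from Myl2 (-3.34) and Actc1 (-3.09) to Pdlim5 (-1.04) and Hspb7 (-1.03), beside 9.01% of all genes. The medians of the 34 genes were -0.76 against heart LECs and -1.0 against heart BECs, and those of all genes -0.10 and 0.03. All 15 and all 18 kept their sign in both batches, which again are parts of the same data. Against heart LECs, leaving out single libraries with VEGFCc156s took Csrp3 (heart LEC mouse 2, diaphragm LEC mouse 2 or 8) to adjusted p of 0.0521 to 0.0543 and Cryab (heart LEC mouse 6, diaphragm LEC mouse 2 or 8) to 0.0653 to 0.0725, and against heart BECs Hspb7 went to 0.0512 without diaphragm LEC mouse 8. Of the other sarcomere and Z-disc genes, Hspb1 (-1.08) and Hspb6 (-1.24) were lower than in heart LECs, and 7 were higher and 4 lower than in heart BECs.

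The third question was whether treatment moved these genes in the endothelial libraries. In heart LECs, Hspb7 was the 1 gene of the 34 to pass the adjusted threshold after angiotensin II. It measured 0.182, 1.37, 0.0513 and 2.48 TPM in controls, 11.4, 6.24, 12.6, 13.7 and 28.6 TPM after angiotensin II, and 3.71, 0.794 and 7.36 TPM with VEGFCc156s. Every angiotensin II library lay above every control, by 3.13 ± 0.49 on the log2(TPM + 1) scale (adjusted p = 0.0293, limma), and the difference was 3.26 and 2.86 within the 2 batches. It was 1 of 7 genes called of 26803 (0.0261%), and of 20 alternative fits only 4 kept the adjusted p under 0.05 (range 0.0226 to 0.278). Leaving out any 1 of the 12 heart LEC libraries, other than control mouse 1 (adjusted p = 0.0328) or mouse 12 after angiotensin II (adjusted p = 0.0248), gave 0.0501 to 0.278. With VEGFCc156s added, Hspb7 was at -2.18 ± 0.58 against angiotensin II alone (adjusted p = 0.413, limma).

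Unadjusted, 14 of the 34 genes were higher in heart LECs after angiotensin II and 0 lower, against 8.94% and 1.93% of all genes. In all, 33 of the 34 had a positive difference, beside 18015 of all 26803 genes, and their median was 1.02 against 0.23 for all genes. Acta1 measured 5.27, 1.47, 22.7 and 0 TPM in controls, 45.5, 19.5, 50.7, 52.0 and 63.8 TPM after angiotensin II, and 32.2, 21.8 and 17.3 TPM with VEGFCc156s. Its difference after angiotensin II was 3.17 ± 0.64 (adjusted p = 0.114, limma), and without control mouse 9 or mouse 12 after angiotensin II the adjusted p was 0.0258 or 0.0194. The within-batch differences of 1.59 and 5.22 were far apart. Ankrd1 measured 5.02, 5.71, 0 and 3.28 TPM, then 17.4, 6.91, 21.8, 20.2 and 85.1 TPM, and 8.91, 15.9 and 5.13 TPM (2.89 ± 0.61, adjusted p = 0.124, limma; within batches 2.61 and 2.99). Ankrd1, Hspb7 and Des were the 3 genes whose angiotensin II libraries lay wholly above the controls, against 2.13% of all genes, and 0 lay wholly below, against 0.481%. The other members past the unadjusted threshold were Mybpc3 (2.36 ± 0.63), Tnnc1 (2.24 ± 0.75), Csrp3 (1.77 ± 0.61), Des (1.56 ± 0.44), Actc1 (1.49 ± 0.53), Tnnt2 (1.49 ± 0.43), Myoz2 (1.27 ± 0.57), Myl3 (1.10 ± 0.46), Cryab (1.02 ± 0.42), Tpm1 (0.81 ± 0.28) and Pdlim5 (0.70 ± 0.28), with adjusted p from 0.222 to 0.433. Myh6 measured 5.29, 1.13, 38.8 and 24.1 TPM in controls, 32.6, 14.0, 35.3, 21.9 and 32.8 TPM after angiotensin II, and 3.30, 16.9 and 7.36 TPM with VEGFCc156s. Myl7 was likewise spread, at 0, 5.35, 11.7 and 69.6 TPM, then 21.8, 16.4, 14.4, 45.7 and 113 TPM, and 0, 32.1 and 4.14 TPM. Both genes overlapped between groups. Tnnt2 measured 72.7, 29.5, 40.8 and 26.0 TPM in controls, 70.8, 46.6, 158, 139.8 and 244 TPM after angiotensin II, and 58.6, 66.7 and 35.6 TPM with VEGFCc156s. Fhl1, which had the highest ratio to the cardiomyocytes, had overlapping groups too, at 76.9, 152, 129 and 173 TPM, 122, 154, 139, 139 and 153 TPM, and 127, 163 and 185 TPM.

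Other features of the heart LEC libraries moved with the group. The summed TPM of the 10 heart-restricted genes was 114 to 254 in controls, 161 to 959 after angiotensin II and 133 to 316 with VEGFCc156s, and that of the 20 cardiomyocyte genes from outside the sarcomere was 741 to 813, 893 to 1428 and 698 to 803. The sum of 8 blood endothelial genes was 2560 to 4103, 4366 to 9087 and 3231 to 3408, and genes reaching 1 TPM numbered 16131 to 24086, 19957 to 25896 and 16756 to 18884, and the 7 lymphatic genes summed to 22832 to 32106, 18170 to 25465 and 19317 to 27092 TPM. The sum of the 17 skeletal muscle genes was 7.84 to 27.7 TPM in controls, 37.4 to 72.9 TPM after angiotensin II and 17.6 to 25.6 TPM with VEGFCc156s. The 5 erythroid genes summed to 6.98 to 2186 TPM in controls, 2063 to 6531 TPM after angiotensin II and 12.2 to 575 TPM with VEGFCc156s. Their part in the differences was not tested. Quantile normalization moved the median of all genes by -0.24, and 29 of the 34 genes then had a positive difference, with a median of 0.88.

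With VEGFCc156s added to angiotensin II, limma called none of the 34 genes in heart LECs (smallest adjusted p = 0.413) and 0% of all genes. Unadjusted, 0 were higher and 7 lower (Fhl2 -2.68, Tnni1 -2.38, Hspb7 -2.18, Ankrd1 -1.77, Des -1.54, Ttn -1.27 and Pdlim5 -0.74), against 1.09% and 9.75% of all genes, and the median was -0.82 against -0.37 for all. Against control, limma called 0 of the 34 and 0% of all genes with VEGFCc156s. There 3 were higher unadjusted (Acta1 2.72, Tnnc1 2.03 and Mybpc3 1.96) and Fhl2 was lower (-1.93), each with an adjusted p of 0.915, against 1.73% and 3.22% of all genes. Of the 34 genes, 2 were higher and 32 lower than after angiotensin II alone, beside 7495 and 19308 of all genes. Against controls 20 were higher and 14 lower, beside 10795 and 16008 of all genes. Quantile normalization, which moved the median of all genes by 0.39 and 0.14, made the splits of the 34 genes 9 and 25, and 26 and 8.

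**Figure D4:**
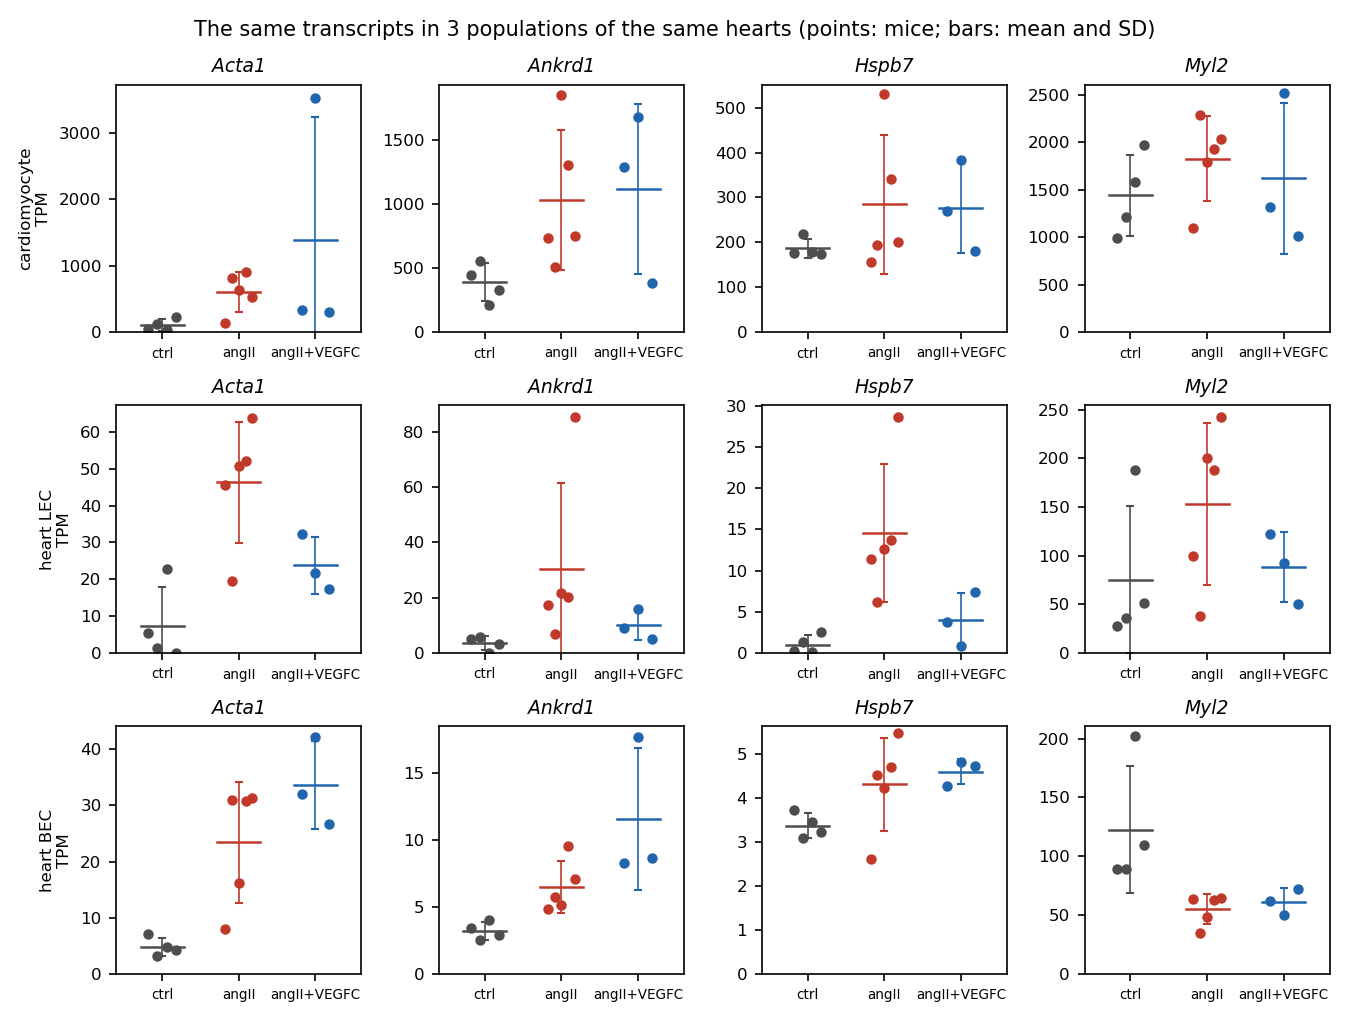
TPM of Acta1, Ankrd1, Hspb7 and Myl2 in the cardiomyocyte, heart LEC and heart BEC libraries of control (n = 4), angiotensin II (n = 5) and angiotensin II + VEGFCc156s (n = 3) mice; points are mice, bars the mean with the SD. Hspb7 in heart LECs lies between 0.0513 and 2.48 TPM in controls and between 6.24 and 28.6 TPM after angiotensin II, and Myl2 in heart BECs lies at 89.3 TPM or more in controls and at 64.9 TPM or less after angiotensin II.

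In heart BECs 32 genes passed the filter on low values, all but Lmod2 and Xirp2, and limma called 0 of them in any of the 3 comparisons, where it called 0% of all 21281 genes too. After angiotensin II, 2 were higher unadjusted (Acta1 and Ankrd1) and 4 lower (Myl2, Fhl1, Des -0.66 and Tpm1 -0.30), against 2.57% and 2.83% of all genes, with a median of -0.23 against -0.06. The summed TPM of 8 smooth muscle and pericyte genes was 305 to 379 in controls, 148 to 287 after angiotensin II and 242 to 428 with VEGFCc156s, and its part in the lower values was not tested. Acta1 measured 7.12, 3.27, 4.77 and 4.20 TPM in controls, 7.96, 31.0, 16.1, 30.8 and 31.3 TPM after angiotensin II, and 32.0, 42.1 and 26.7 TPM with VEGFCc156s. Both treated groups lay wholly above the controls, by 1.85 ± 0.35 (adjusted p = 0.555) and 2.73 ± 0.40 (adjusted p = 0.177, limma), and the sign held within each batch (1.31 and 2.76, and 2.66 and 2.68). Acta1 passed in both comparisons once mouse 3, the angiotensin II library at 7.96 TPM and the nearest to the controls, was left out (adjusted p = 0.0478 and 0.0495, limma). Mouse 3 is in neither group of the comparison of VEGFCc156s with control. There the difference moved from 2.73 to 2.62, and the mouse enters only through terms shared by the 3 groups. The share of Acta1 in both actins was 14.7% ± 9.18 (SD) in controls, 38.3% ± 12.9 and 44.3% ± 2.40. Ankrd1 also lay above the controls in both, with 3.42, 2.5, 4.03 and 2.88 TPM in controls, then 4.82, 5.74, 5.13, 9.56 and 7.11 TPM, and 8.30, 17.7 and 8.68 TPM (0.78 ± 0.28, adjusted p = 0.838, and 1.56 ± 0.32, adjusted p = 0.485).

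Myl2, the ventricular light chain, lay the other way in heart BECs, with 89.5, 89.3, 202 and 109.7 TPM in controls, 63.6, 34.9, 48.8, 63.1 and 64.9 TPM after angiotensin II, and 62.1, 49.9 and 72.5 TPM with VEGFCc156s. Both treated groups lay wholly below the controls (-1.12 ± 0.26, within batches -1.48 and -0.62, adjusted p = 0.671, and -0.88 ± 0.30, adjusted p = 0.857, limma), while Myl2 in the cardiomyocytes of the same mice overlapped between groups. Fhl1 lay below too after angiotensin II, at 65.2, 49.2, 52.2, 40.1 and 44.1 TPM against 119, 85.5, 70.7 and 67.9 TPM in controls, and at 80.8, 52.7 and 55.3 TPM with VEGFCc156s (-0.73 ± 0.19 after angiotensin II, adjusted p = 0.697). These genes made up the 2 above and 2 below without overlap after angiotensin II, against 0.982% and 0.898% of all genes. With VEGFCc156s, Acta1, Ankrd1, Hspb7 and the untested Lmod2 lay wholly above the controls and Myl2, Nebl and Nexn wholly below, against 2.55% and 2.38% of all genes. Hspb7 there measured 3.72, 3.09, 3.44 and 3.21 TPM in controls, 2.61, 4.51, 4.22, 4.70 and 5.47 TPM after angiotensin II, and 4.26, 4.80 and 4.71 TPM, a narrow spread. Unadjusted, 2 were higher with VEGFCc156s than in controls (Acta1 and Ankrd1) and 3 lower (Nexn -1.03, Tnni3 -1.01 and Myl2), against 2.49% and 3.02% of all genes. Ankrd1 (0.78) and Des (0.59) were higher than after angiotensin II alone and 0 lower, against 1.47% and 1.12%.

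The contractile genes without a group difference in heart BECs stayed low. Myh6 measured 3.17, 15.6, 17.1 and 7.45 TPM in controls, 7.01, 6.54, 13.4, 9.50 and 6.27 TPM after angiotensin II, and 6.89, 13.5 and 7.60 TPM with VEGFCc156s, and Myl7 2.37 to 20.7, 2.99 to 18.6 and 10.9 to 25.8 TPM. Tnnt2 measured 34.5, 33.7, 69.8 and 35.8 TPM, then 35.2, 30.5, 35.7, 32.7 and 45.3 TPM, and 37.8, 44.9 and 41.4 TPM. The sum of the 10 heart-restricted genes lay between 118 and 277 TPM in the 12 heart BEC libraries.

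In diaphragm LECs 30 genes passed the filter, all but Myh7, Lmod2, Xirp1 and Xirp2, and 4 libraries stood apart before any comparison. Mouse 5 (control) and mice 3, 4 and 15 (angiotensin II) had more than 100 TPM of Nppa, the atrial natriuretic peptide gene, and their atrial sums were 560.4, 1266, 952 and 559.5 TPM against 81.6 to 125 TPM in the other 8. Their heart-restricted sums were 445, 635, 514 and 202 TPM, and those of the other 8 were 17.2 to 39.0 TPM. Myl4, a gene of that set, was at 10.9 TPM or more in all 12 libraries, a large part of the low sums. Myh6 accordingly measured 0.0655, 43.4, 0.440 and 0.767 TPM in controls, 74.3, 78.5, 1.30, 16.6 and 4.07 TPM after angiotensin II, and 0.597, 0.0433 and 0.507 TPM with VEGFCc156s. Myl7 measured 0, 124, 3.07 and 4.43 TPM, then 174, 168, 0.910, 41.3 and 0.721 TPM, and 2.75, 1.86 and 0 TPM. In Tnnt2 the same libraries were high, with 1.27, 79.6, 13.6 and 2.78 TPM, then 87.7, 84.2, 0.860, 30.7 and 2.94 TPM, and 1.76, 1.63 and 0.503 TPM. None of the 4 libraries came from mice with VEGFCc156s, so every comparison with that group rests on them in part. So does angiotensin II against control, with mouse 5 on the control side and mice 3, 4 and 15 on the other.

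Acta1 did not follow that pattern. It measured 22.2, 139, 137 and 32.5 TPM in controls, 52.5, 49.3, 73.3, 27.8 and 29.4 TPM after angiotensin II, and 20.3, 54.7 and 24.7 TPM with VEGFCc156s (-0.54 ± 0.49 after angiotensin II). The 2 libraries near 139 TPM had the highest sums of 17 skeletal muscle genes, 234 and 246 TPM against 60.5 to 159 TPM in the others. Fhl1 was even across the libraries, from 169 to 267 TPM. Hspb7 measured 0.193, 6.53, 3.51 and 0.405 TPM in controls, 7.71, 4.51, 0.735, 3.02 and 0.745 TPM after angiotensin II, and 0.321, 1.36 and 0.346 TPM with VEGFCc156s. After angiotensin II, limma called 0 of the 30 genes (smallest adjusted p = 0.297) and 0% of all 23839. Unadjusted, 5 were higher (Myh6 2.38, Actc1 2.04, Tnni1 1.72, Nebl 1.25 and Ttn 1.09) and 0 lower, against 13.9% and 1.45% of all genes. In all 28 were higher and 2 lower, beside 16106 and 7733 of all genes. After quantile normalization, which moved the median of all genes by -0.30, the split of the 30 genes was 21 and 9. These differences rest in part on the Nppa-rich libraries. In batch 1, where only angiotensin II libraries (mice 3 and 4) were rich in Nppa, Myh6 differed by 4.275. In batch 2, which held mouse 5 of the controls and mouse 15, it differed by 0.0924. With VEGFCc156s against angiotensin II it called 0 again (smallest adjusted p = 0.567, 0% of all genes). Here 17 were lower unadjusted, led by Myh6 (-4.75 ± 0.96), Actc1 (-4.49), Myl7 (-4.34), Tnni3 (-3.89) and Tnnt2 (-3.75), and 1 higher (Fhl1 0.37), against 7.66% and 1.12% of all genes. Without the 4 Nppa-rich libraries 24 genes passed the filter, 0 were called, 0 passed unadjusted in either direction, and the median moved from -1.34 to 0.10. These libraries were picked after seeing the data and were rich in heart transcripts, so this outcome follows in part from the choice. Only mice 14 and 18 then remained after angiotensin II. Against control, with VEGFCc156s, 0 were called (0% of all genes) and 5 were lower unadjusted (Tnnt2 -2.92, Tnni3 -2.48, Actc1 -2.46, Myh6 -2.36 and Ankrd1 -1.82) and 0 higher, against 0.390% and 0.927% of all genes. Without the 4 Nppa-rich libraries the population comparisons gave more calls: 18 genes passed against heart LECs, Acta1 not among them, and 22 against heart BECs. The choice of libraries favours this too, since it lowers the heart transcripts of the diaphragm LECs.

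**Figure D5:**
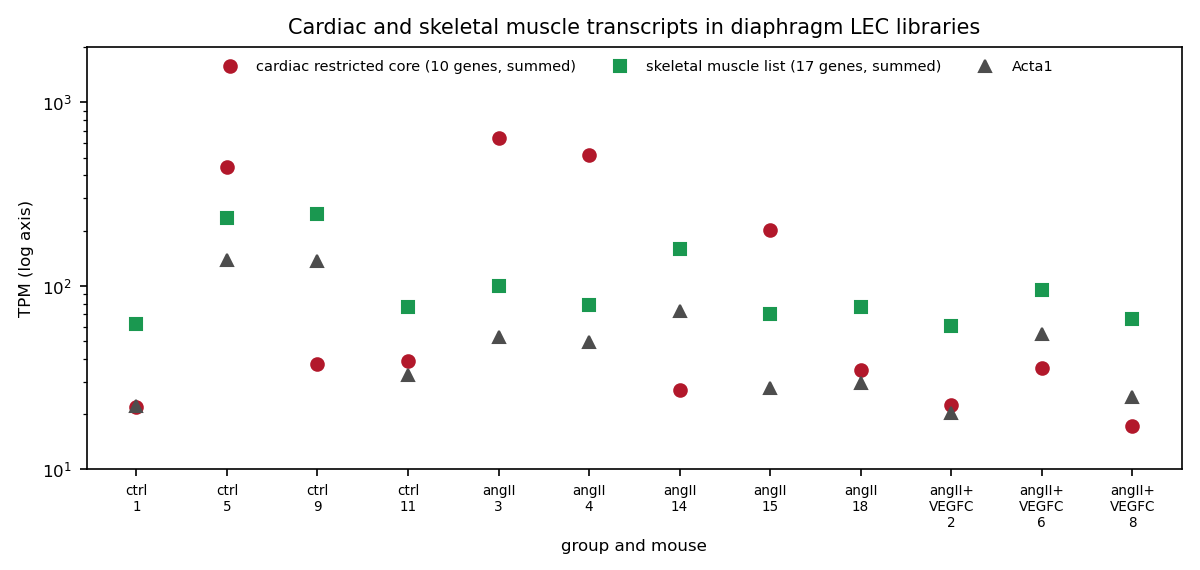
Summed TPM of 10 heart-restricted sarcomere genes, summed TPM of 17 skeletal muscle genes and TPM of Acta1 in each of the 12 diaphragm LEC libraries, on a log axis, by treatment. The heart-restricted sum is 202 to 635 TPM in 4 libraries (mouse 5 of the controls and mice 3, 4 and 15 after angiotensin II) and 17.2 to 39.0 TPM in the other 8, while Acta1 is highest where the skeletal muscle sum is highest, in controls 5 and 9.

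Whether the response to treatment differed between the endothelial populations was tested directly as an interaction over the 36 libraries. For angiotensin II against control, no gene of the 34 differed between heart LECs and heart BECs in limma (smallest adjusted p = 0.4, 0% of all genes). Unadjusted, 8 were more positive in heart LECs and 0 more negative, against 6.37% and 0.815% of all genes. Hspb7 differed by 2.71 ± 0.71. Between heart and diaphragm LECs the same contrast called 0 of the 34 (smallest adjusted p = 0.153) and 0.00611% of all genes, with 6 more positive in heart LECs unadjusted and 0 more negative, beside 4.17% and 5.53% of all genes. Acta1 led with 3.76 ± 0.82 (adjusted p = 0.153), followed by Hspb7 with 2.66 (adjusted p = 0.23, limma). Between diaphragm LECs and heart BECs 0 were called (smallest adjusted p = 0.386; 0% of all genes) and unadjusted 4 were more positive in diaphragm LECs and 1 more negative, beside 10.2% and 0.797% of all genes. For the addition of VEGFCc156s, limma called 0 of the 34 and 0% of all genes in each pair of populations (smallest adjusted p = 0.768, 0.7 and 0.988). Unadjusted, 7 were more negative in heart LECs than in heart BECs and 0 more positive, beside 5.87% and 0.556% of all genes. In diaphragm LECs 8 were more negative than in heart BECs and 0 more positive, beside 6.34% and 0.669%. Between heart and diaphragm LECs 1 was more positive and 1 more negative, beside 2.00% and 2.89%.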

How the data were processed

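RNA-seq libraries of 4 cell populations (12 each) were analysed. The authors prepared them with an ultra-low-input kit without molecular identifiers, aligned reads with STAR 2.5.3a to GRCm38, quantified them with Salmon 0.12.0 and removed outlier libraries. The deposited values are TPM per Ensembl gene, so read depth is unknown and no counts were tested. TPM sum to a fixed total, so a change in abundant mitochondrial transcripts moves all other genes. Groups came from the sample labels. Only genes that reached 1 TPM in 3 libraries of the fit entered it, as log2(TPM + 1), which understates changes of low genes, with limma 3.58.1 (R 4.3.3, variance trend), with age, and batch for endothelial cells, as covariates. P-values are two-sided and adjusted by Benjamini-Hochberg over all genes tested, with a threshold of 0.05. Each population was fitted separately with its 3 groups, and the 36 endothelial libraries together for differences between populations and interactions. Endothelial libraries were sequenced in 2 batches and the 12 cardiomyocyte libraries in another, so cardiomyocytes were tested against no other population. Scripts were tested on simulated data. The members, gene lists and named-gene rule (preset genes per population, any gene past the threshold, the largest differences and ratios) were chosen with earlier results of these data known. Same-numbered libraries come from the same animal, and the median correlation of their deviations from group means over genes was 0.087 between heart LECs and heart BECs, 0.063 between heart and diaphragm LECs and 0.104 between heart BECs and diaphragm LECs. Alternatives were a pseudocount of 0.1, no filter, no or other covariates, quantile normalization, mitochondrial genes left out, only the groups compared, the mouse as a replicate block and each library left out. Promoters came from RefSeq (GRCm38.p6) and gene positions from a GRCm38 annotation; tables and figures were made with Python 3.11.15, pandas 2.3.3 and matplotlib 3.10.9.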

Additional observations from a re-analysis of the deposited data

Results flagged for a closer look

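Within groups of 4 or 5 libraries, the highest or lowest library of each gene given mouse by mouse was compared with its nearest neighbour by Dixon's ratio, and 10 of 72 groups examined had a library apart from the rest, where chance would give about 1 in 20 if the checks were independent. In cardiomyocytes these were Myh6 (3914 TPM, next 1899 TPM) and Nebl (77.2 TPM, next 36.4 TPM) in mouse 14 after angiotensin II, Fhl1 in control mouse 1 (137 TPM, next 104 TPM) and Hspb7 in control mouse 5 (218 TPM, next 178 TPM). In heart LECs after angiotensin II it was Ankrd1 in mouse 18 (85.1 TPM, next 21.8 TPM). In control endothelial libraries they were Myl7 in heart LECs of mouse 11 (69.6 TPM, next 11.7 TPM) and Tnnt2 in heart BECs of mouse 9 (69.8 TPM, next 35.8 TPM). The diaphragm LECs of control mouse 5, one of the 4 libraries rich in Nppa, were apart for Myh6 (43.4 TPM, next 0.767 TPM), Tnnt2 (79.6 TPM, next 13.6 TPM) and Myl7 (124 TPM, next 4.43 TPM). Since a single library was flagged for several genes, the checks are not independent, and whether their count exceeds chance was not tested.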

How the results depend on the processing

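Of 6807 alternative values, 6554 kept their direction and their side of the threshold, stayed within 1.5 times the main count or, for ratios and shares, moved by less than the SD over mice. Counts that stayed at 0 are among them. With the number of detected genes as covariate, 1 of the 34 genes was called in cardiomyocytes after angiotensin II (Ankrd1) and 3 with VEGFCc156s against control (Myl7, Xirp2 and Fhl1), beside 3.01% and 4.90% of all genes, while quantile normalization called 2 there (Nebl and Ldb3, beside 2.08%) and the first principal component or leaving out mitochondrial genes 1 (Nebl, beside 3.34% and 1.11%). Leaving out single libraries gave 0 to 1 and 0 to 5 calls, the highest of both without mouse 8, when limma called 314 and 852 of all genes. The Hspb7 call in heart LECs became 0 calls with a pseudocount of 0.1, without the filter, without covariates, with quantile normalization or with only the 2 groups, and single libraries moved the count from 0 to 2. In heart BECs, 1 gene (Acta1) was called with VEGFCc156s against control with only these groups, and leaving out single libraries gave 0 to 1 calls in both comparisons with control. Population calls ranged over single libraries from 5 to 8 (heart LECs against BECs), 13 to 18 (diaphragm against heart LECs) and 17 to 19 (diaphragm LECs against heart BECs), and the interaction of heart and diaphragm LECs for angiotensin II from 0 to 1 (Acta1, without control mouse 9 of heart LECs). With the mouse as replicate block, the calls between populations were 7, 18 and 18 in place of 6, 15 and 18, adding Ttn (0.56, adjusted p = 0.0240, limma) to the first and Myh6, Nebl and Myom1 to the second, and the block changed no other count of calls by over 1.5 times. The median ratio of the heart-restricted genes was 1.49 to 1.62% (heart LECs), 1.30 to 1.31% (heart BECs) and 0.106 to 0.159% (diaphragm LECs) over left-out mice, and 5.56, 3.13 and 1.67% with cardiomyocyte genes from outside the sarcomere. Over left-out libraries the shares ranged, in controls, angiotensin II and with VEGFCc156s, over 0.551 to 0.882%, 1.41 to 2.17% and 1.13 to 4.01% (Myh7), 2.30 to 5.43%, 14.5 to 20.9% and 12.7 to 32.7% (Acta1), 0.105 to 0.138%, 0.0936 to 0.127% and 0.108 to 0.12% (Tnni1), and 85.0 to 90.3%, 67.5 to 75.3% and 66.1 to 82.1% (Myl4 and Myl7), and the Tnni1 share with VEGFCc156s was 0.161% from TPM + 1. In diaphragm LECs, the difference of Nebl after angiotensin II reversed to -0.33 with the number of genes as covariate, and without the 4 Nppa-rich libraries, an alternative chosen after seeing the data, VEGFCc156s against angiotensin II reversed to Myl2 1.58, Myl3 1.03, Myl7 1.70, Tnnt2 0.93, Tnnc1 0.57 and Ankrd1 0.29. The causes were not tested, except that these alternatives hold fewer libraries. Where an arm was left with few libraries, its spread was taken from the other groups. Depth is unknown and groups are of 3 to 5 mice, which limits the precision of every comparison.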
